A study of Mus musculus with 8 samples.

Results

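Vascular endothelial genes were followed as a list of 38 mouse genes in whole kidneys, out of 37583 gene identifiers counted in each library. The list was drawn up from what the genes are known to mark, as pan-endothelial, arterial, glomerular and other capillary genes, and not from a cut on measured values. All 38 had a row in every count file, and all 38 were among the 14433 genes that passed the filter on low counts. For 12 of them a small positive difference was already known from these same libraries. The other 26 were added to ask whether it holds over a wider list, so the first 12 and the further 26 are given apart.

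The study compared 4 RNA-seq libraries of whole kidneys from mice labelled KO, with the genotype Six2Cre+TFAP2Afl/flTFAP2Bfl/WT, with 4 libraries from control littermates labelled WT. In this line Cre recombinase is driven by Six2, a gene of the nephron progenitors, and both copies of Tfap2a but only a single copy of Tfap2b carry sites for its removal. Those progenitors give rise to podocytes and tubules and not to blood vessel endothelium, so endothelial cells are not the cells in which this driver acts. The labels give no age, sex, strain or litter, do not say which of these alleles the control littermates carry, and do not say that the libraries come from separate animals. The p-values therefore measure only the spread between these libraries.

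Endothelial cells line every blood vessel of the kidney, from arteries and the fenestrated glomerular capillaries to the peritubular capillaries around the tubules. They take growth signals from VEGF through Kdr and Flt1 and from angiopoietins through Tek, are held together by junction proteins such as Cdh5 and Cldn5, and keep their identity through ETS factors (Erg, Fli1, Ets1) and SOX factors (Sox7, Sox17, Sox18). Arterial cells add Notch signalling and the connexins Gja4 and Gja5, while the fenestrated peritubular capillaries carry Plvap, the protein of the diaphragms that span their pores.

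Each library held between 13871861 and 16629301 counts assigned to genes, and levels are given as CPM, counts per 1000000 counts of a library after TMM scaling. A member had between 26 and 2280 counts in a library, with a median of 227, and 3 counts correspond to 0.223 CPM in the smallest library. The targeted genes did not set the labels apart: Tfap2a averaged 5.05 ± 0.99 CPM (SD, n = 4) under the knockout label and 4.22 ± 1.08 CPM under the wildtype label, and Tfap2b 80.0 ± 20.3 and 78.3 ± 20.5 CPM. Paired means are always given in that order, knockout label first, with SD and n = 4. Reads from outside the part of a gene that is removed would not show the deletion, so this does not check the labels, and every direction below is between libraries as labelled. Adrenal cortex transcripts were high in knockout 2 and wildtype 1 (summed 916 and 888 CPM over 6 genes, against 4.52 to 11.4 CPM in the other libraries). Fat transcripts were highest in knockout 1, knockout 2 and wildtype 1, and red cell transcripts in knockout 1. The heat-shock genes Hspa1a and Hspa1b summed to 245 and 519 CPM in knockout 2 and knockout 4 and to 15.5 to 53.4 CPM in the other 6 libraries. Values without such libraries are given beside the members they move most.

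Most endothelial genes had small positive differences between the labels, and none passed the test. The counts over all 38 include the 12 members already known to be higher in these libraries, so they describe the list and do not bear on the question, which rests on the further 26 below. Of the 38 members, 32 (84.2%) had a positive log2 difference, knockout minus wildtype, beside 51.3% of all 14433 tested genes. Their median log2 difference was 0.15, a fold of 1.11, beside 0.01 over all tested genes. No member passed an adjusted p of 0.05 in edgeR's quasi-likelihood test, and 0% of all tested genes were called in either direction. The members' adjusted p ran from 0.957 to 0.999. At an unadjusted p under 0.05, 8 of 38 members (21.1%) were higher and 0 were lower, beside 2.17% of tested genes higher and 1.84% lower. DESeq2 and limma-voom also called 0 members, each with 8 at an unadjusted p under 0.05. The 4 libraries labelled knockout lay wholly above the 4 labelled wildtype for 5 members (13.2%), Plvap, Flt1, Tie1, Pecam1 and Cd34, beside 1.03% of tested genes. For 0 members they lay wholly below, beside 0.942% of tested genes. The members mark the same cells and share the same libraries, so their directions are not independent of each other, and in whole kidney a change in endothelial cell number and a change in RNA per cell cannot be told apart.

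**Figure D1:**
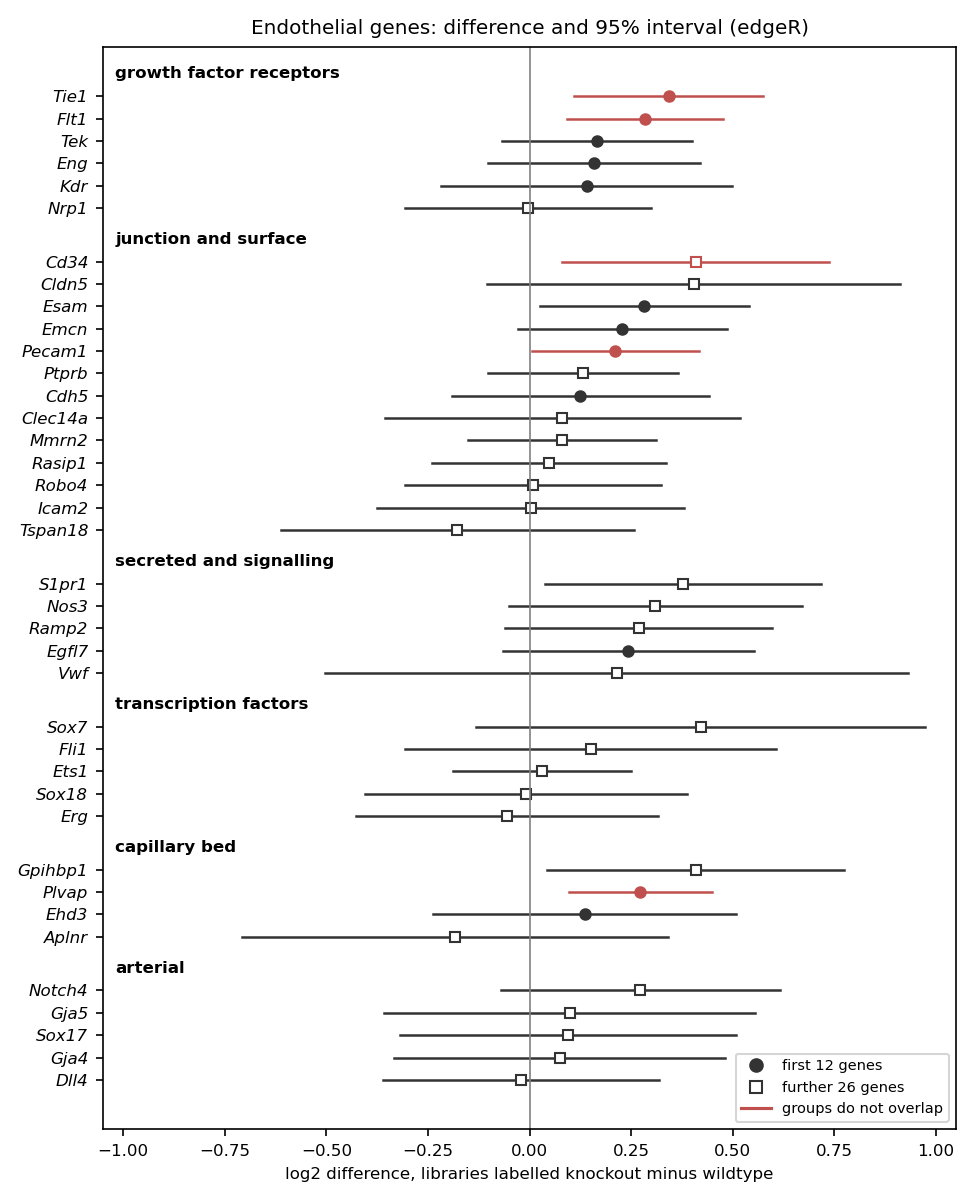
Difference of each endothelial gene on the log2 scale (x axis, libraries labelled knockout minus wildtype, points) with its 95% interval from edgeR (lines), grouped by role on the y axis. Filled circles are the first 12 genes, open squares the further 26, and red marks the 5 genes whose groups do not overlap; 32 of 38 points lie above 0, between -0.18 and 0.42 in all.

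Over the further 26 most differences were positive too, but small, and the labels barely parted. All 12 of the first members had a positive difference, with a median log2 difference of 0.22 and a range of 0.12 to 0.34. Of the further 26, 20 (76.9%, beside 51.3% of all tested genes) were positive and 6 negative, with a median of 0.09, quartiles of 0.00 and 0.27 and a range of -0.18 to 0.42. Only Cd34 among these 26 had groups that did not overlap (3.85%, beside 1.03% of tested genes higher), and Cd34, Gpihbp1 and S1pr1 were at an unadjusted p under 0.05 in edgeR's test (11.5%, beside 2.17%), and 0 of the 26 passed its adjusted threshold. The mean log2 CPM of the further 26 lay at 3.54, 3.50, 3.47 and 3.41 in knockout 1 to 4 and at 3.34, 3.32, 3.36 and 3.40 in wildtype 1 to 4. The lowest library labelled knockout thus stood only 0.01 above the highest labelled wildtype. For the first 12 the same mean ran from 5.47 to 5.69 against 5.29 to 5.43. On summed CPM, where abundant genes weigh most, the further 26 overlapped between groups, at 411 to 469.9 against 403 to 436 CPM. Whether the first 12 and the further 26 differ in size was not tested. Without knockout 1, knockout 2 and wildtype 1, 16 of the further 26 were positive with a median of 0.07, and without knockout 3 the count was also 16. Without knockout 4 the median was 0.15, and without knockout 2 and knockout 4 it was also 0.15.

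**Figure D2:**
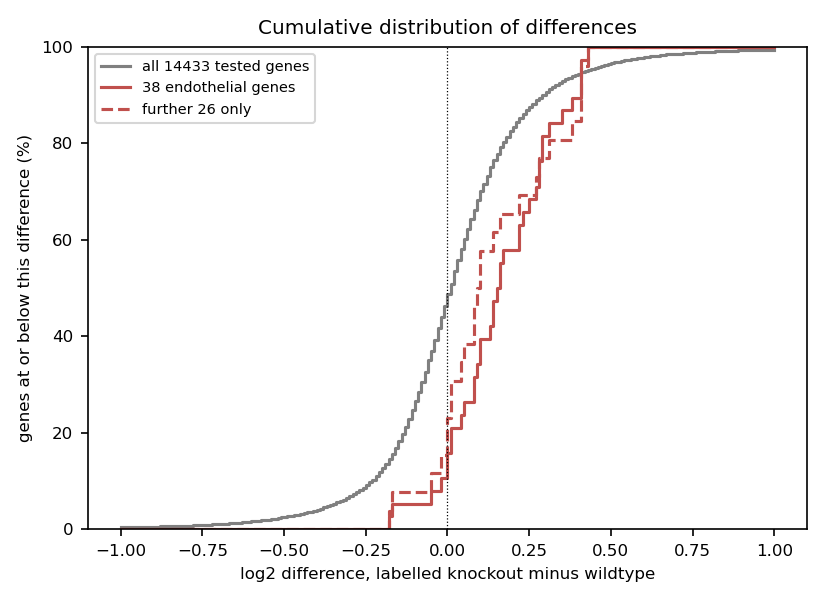
Share of genes (y axis, percent) whose log2 difference, labelled knockout minus wildtype, is at or below the value on the x axis, in steps of 0.01. The red curves of the 38 endothelial genes and of the further 26 run to the right of the grey curve of all 14433 tested genes up to about 0.4, and all members end by 0.43.

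Single members were measured with errors as large as most of the differences. Their standard errors on the log2 scale ran from 0.08 to 0.32 with a median of 0.15, close to the median difference itself. All 38 intervals (95%) lay within a doubling or halving, and 21 had an upper bound under a log2 difference of 0.5. Among the members the spread between libraries was wider under the knockout label, with a median coefficient of variation of 17.8% against 11.2%. The same was not taken over all genes, so it only describes the list.

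Among the growth factor receptors, 5 of 6 had a positive difference (83.3%, beside 51.3% of all tested genes), with a median of 0.16. In Flt1 and Tie1 the labels did not overlap (33.3%, beside 1.03% of tested genes higher). All 5 are among the first 12, already known to be higher, so this count does not bear on the question. The single further receptor, Nrp1, was level. Flt1 (chr5:147561604-147726011), the VEGF receptor that also acts as a decoy, was at 58.4, 67.8, 65.6 and 59.3 CPM in knockout 1 to 4 and at 52.9, 53.1, 49.7 and 50.4 CPM in wildtype 1 to 4. Tie1 (chr4:118471191-118490061), the partner receptor of Tek, was at 35.7, 35.8, 34.8 and 33.0 CPM against 30.9, 29.4, 24.3 and 25.3 CPM. In both genes every library labelled knockout was above every one labelled wildtype, by 0.28 ± 0.09 (SE) for Flt1 and 0.34 ± 0.11 for Tie1 on the log2 scale, with an edgeR adjusted p of 0.957 each. Over the alternatives of the fit the difference stayed between 0.24 and 0.32 for Flt1 and between 0.29 and 0.41 for Tie1. Eng (chr2:32646595-32682669), a co-receptor of the TGF-beta family, was at 86.7, 89.8, 106.9 and 90.6 CPM against 67.5, 91.6, 85.0 and 90.9 CPM. Wildtype 1 and wildtype 3 lay below every library labelled knockout, while the other 2 overlapped with them, and the log2 difference was 0.16 ± 0.12. It was 0.07 without wildtype 1, 0.09 without knockout 3 and 0.09 without both adrenal libraries (knockout 2 and wildtype 1). The main VEGF receptor Kdr averaged 46.6 ± 9.3 and 42.2 ± 7.2 CPM (log2 difference 0.14), and the angiopoietin receptor Tek 38.4 ± 3.9 and 34.2 ± 2.9 CPM (0.17). Nrp1, a VEGF and semaphorin co-receptor that other kidney cells also make, was level between the labels at 122.9 ± 22.1 and 123.3 ± 13.4 CPM.

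Genes of the junctions and cell surface were positive in 12 of 13 cases (92.3%, beside 51.3% of all tested genes) with a median of 0.12. In 2 of them the labels did not overlap (15.4%, beside 1.03% of tested genes higher). Pecam1, Emcn, Cdh5 and Esam of this group are among the first 12, already known to be higher. Pecam1 (chr11:106654217-106750628), the junctional adhesion protein CD31, was at 45.8, 46.8, 46.0 and 47.0 CPM in knockout 1 to 4 and at 34.9, 42.2, 40.0 and 43.2 CPM in wildtype 1 to 4. Cd34 (chr1:194938819-194961279), a surface sialomucin also found on stromal and blood progenitor cells, was at 36.5, 24.8, 25.2 and 24.7 CPM against 19.6, 19.0, 23.8 and 21.4 CPM. Pecam1 differed by 0.21 ± 0.09 on the log2 scale, with wildtype 1 the lowest library, and the knockout values lay within a coefficient of variation of 1.26%, the lowest among the members. Cd34 differed by 0.41 ± 0.15, by 0.25 without knockout 1, which stood high above its group, and by 0.22 without knockout 1, knockout 2 and wildtype 1. Knockout 1 also had the highest red cell transcripts. Its summed fat transcripts (691 CPM) were close to those of wildtype 1 (687 CPM) and knockout 2 (679 CPM). The part of red cells and fat in the Cd34 value was not tested. Esam (chr9:37528078-37538319), a tight junction adhesion protein, was at 49.4, 39.5, 37.5 and 40.8 CPM against 38.1, 30.9, 36.4 and 32.2 CPM. Its groups overlapped through wildtype 1 and knockout 3, with a log2 difference of 0.28 ± 0.12.

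The remaining surface genes overlapped between labels. Cldn5, the tight junction claudin of endothelium, had the largest standard error of these 13, with 8.63 ± 1.96 and 6.54 ± 1.63 CPM and a log2 difference of 0.40 ± 0.23. The sialomucin Emcn (66.2 ± 9.6 and 56.5 ± 4.2 CPM) differed by 0.23, and the phosphatase Ptprb, which acts on Tek and Cdh5, by 0.13 (49.3 ± 6.0 and 45.0 ± 2.2 CPM). Cdh5, the adherens junction cadherin, averaged 25.6 ± 4.2 and 23.5 ± 2.8 CPM with a log2 difference of 0.12. Clec14a (10.4 ± 2.9 and 9.81 ± 1.04 CPM) and its matrix partner Mmrn2 (20.2 ± 1.1 and 19.1 ± 1.6 CPM) both differed by 0.08. The Slit-family receptor Robo4 (18.8 ± 3.4 and 18.7 ± 1.9 CPM), the junction regulator Rasip1 (12.9 ± 1.8 and 12.5 ± 0.5 CPM) and the leukocyte ligand Icam2 (6.23 ± 1.02 and 6.21 ± 0.73 CPM) had log2 differences of 0.01, 0.05 and 0.00. Tspan18, a tetraspanin, was the 1 surface gene with a negative difference, at 7.12 ± 1.81 and 8.04 ± 1.1 CPM (-0.18 ± 0.20).

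Secreted and signalling genes were positive in 5 of 5 cases (beside 51.3% of all tested genes) with a median of 0.27, the highest of the 6 role groups. No gene of this group separated the labels, beside 1.03% of tested genes higher. Egfl7 of this group is among the first 12, already known to be higher. S1pr1 (chr3:115710433-115715072), the receptor for sphingosine 1-phosphate that steadies the endothelial barrier, was at 13.2, 11.4, 9.65 and 14.8 CPM in knockout 1 to 4 and at 9.87, 10.3, 9.04 and 8.59 CPM in wildtype 1 to 4. Egfl7 (chr2:26580014-26593120), a secreted matrix protein, was at 47.4, 36.5, 41.3 and 29.9 CPM against 34.6, 30.2, 30.8 and 35.5 CPM. The S1pr1 groups overlapped only through knockout 3, which was below wildtype 1 and wildtype 2, and the log2 difference was 0.38 ± 0.15. The Egfl7 groups overlapped through knockout 4, the lowest of all 8 libraries, and the log2 difference was 0.24 ± 0.14. It was 0.13 without knockout 1, 0.15 without knockout 1, knockout 2 and wildtype 1, and 0.44 without knockout 2 and knockout 4. Nos3, the endothelial nitric oxide synthase, averaged 6.15 ± 0.79 and 4.97 ± 0.53 CPM (0.31), and Ramp2, which makes the adrenomedullin receptor together with Calcrl, 14.7 ± 2.2 and 12.2 ± 1.6 CPM (0.27). Vwf, the clotting protein stored in endothelial granules, was at 4.23 ± 1.23 and 3.66 ± 1.63 CPM with the widest standard error of all members (0.21 ± 0.32).

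The transcription factors were nearest to the background, with 3 of 5 positive and a median of 0.03. Sox7 (chr14:63943673-63950732) was at 3.55, 2.87, 3.49 and 2.27 CPM in knockout 1 to 4 and at 1.77, 1.75, 2.78 and 2.78 CPM in wildtype 1 to 4. Sox18 (chr2:181669836-181671640) was at 9.83, 8.996, 11.8 and 7.35 CPM against 7.55, 10.02, 9.29 and 11.3 CPM. Sox7 had the highest log2 difference of all 38 members, 0.42 ± 0.25, but knockout 4 lay below both of the higher wildtype libraries, and the difference was 0.24 without knockout 1, knockout 2 and wildtype 1 and 0.63 without knockout 2 and knockout 4. Sox18 was level at -0.01 ± 0.18, and its sign turned to 0.02 when libraries were scaled by their totals alone and to 0.18 without knockout 2 and knockout 4. The ETS factors Erg (7.14 ± 0.87 and 7.4 ± 1.2 CPM), Fli1 (8.6 ± 1.9 and 7.75 ± 1.66 CPM) and Ets1 (31.2 ± 2.3 and 30.5 ± 2.2 CPM) had log2 differences of -0.06, 0.15 and 0.03. Fli1 and Ets1 are also made by leukocytes.

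Capillary genes were positive in 3 of 4 cases, beside 51.3% of all tested genes. Of these, Plvap and Ehd3 are among the first 12, already known to be higher. Plvap (chr8:71497765-71511752) was at 127.8, 122.2, 122.2 and 126.7 CPM in knockout 1 to 4 and at 106.2, 107.6, 96.3 and 103.0 CPM in wildtype 1 to 4. Its groups lay apart by more than the spread within either, the log2 difference was 0.27 ± 0.08 (interval 0.10 to 0.45), and it had the lowest unadjusted p of the members, 0.00614 in edgeR's test with an adjusted p of 0.957. DESeq2 gave an adjusted p of 0.493 for the same gene. Gpihbp1, which carries lipoprotein lipase to the capillary lumen, averaged 8.47 ± 1.60 and 6.39 ± 0.54 CPM with a log2 difference of 0.41 ± 0.16. Ehd3, a membrane trafficking protein enriched in glomerular endothelium, was at 24.9 ± 5.9 and 22.6 ± 2.3 CPM with a log2 difference of 0.14 ± 0.17, and was the single glomerular member. Its 4 libraries labelled knockout ranged from 18.5 to 29.98 CPM and spanned the whole wildtype range of 19.4 to 24.7 CPM. Aplnr, the apelin receptor of venous and capillary cells, had the lowest difference of all members, -0.18 ± 0.24 (5.20 ± 1.26 and 5.89 ± 1.46 CPM).

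**Figure D3:**
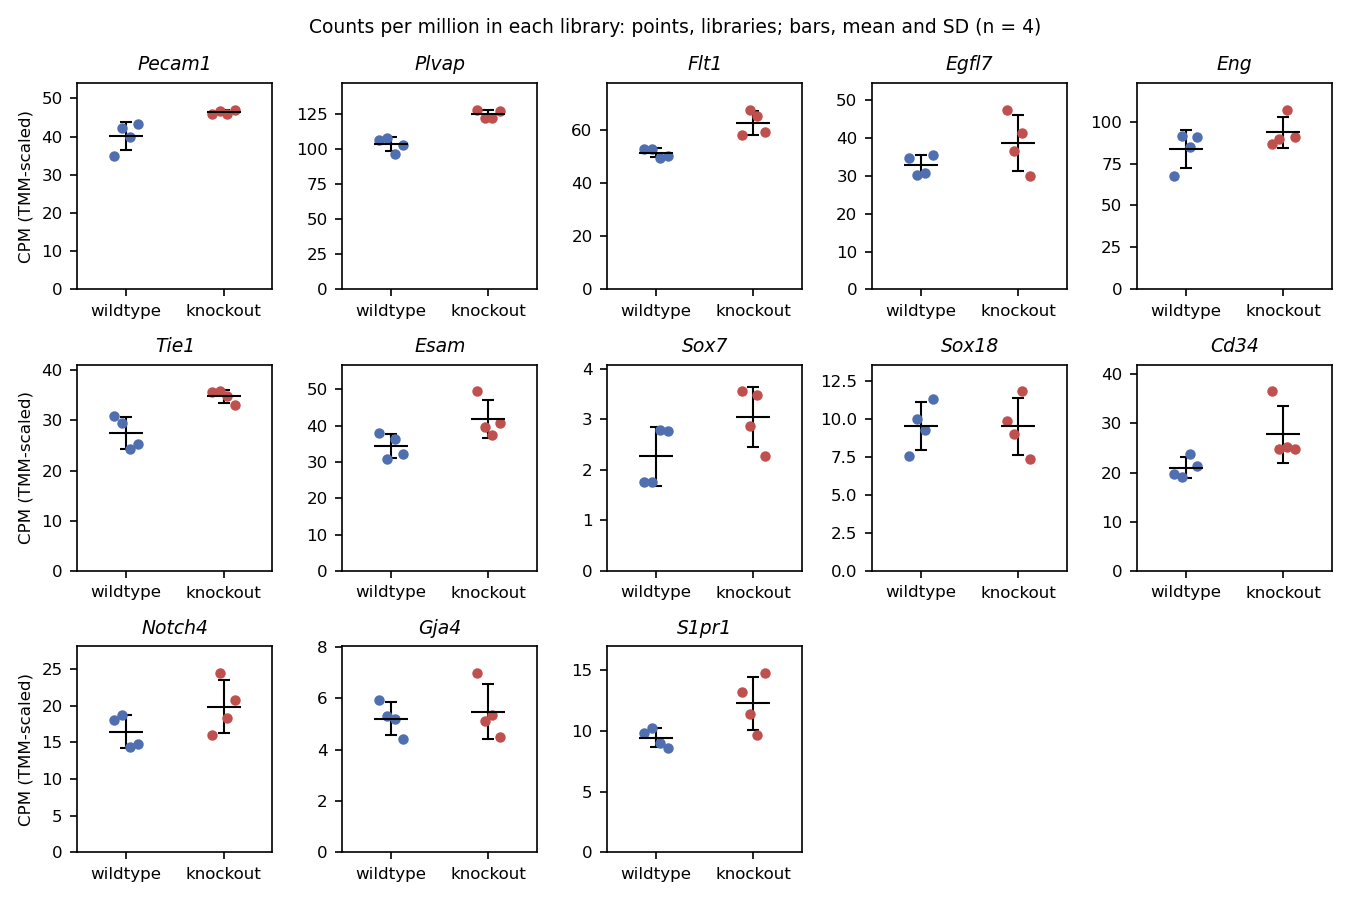
CPM (y axis, TMM-scaled, each panel from 0) of 13 endothelial genes in the 4 wildtype (blue) and 4 knockout (red) libraries, as labelled, with the mean and SD of each group as bars. The labels lie apart in the panels of Plvap, Flt1, Tie1, Pecam1 and Cd34, where knockout 1 stands alone at 36.5 CPM, and overlap in the other 8.

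None of the arterial genes set the labels apart. Of the 5, 4 were positive (beside 51.3% of all tested genes) with a median log2 difference of 0.09. None had groups that did not overlap, beside 1.03% of tested genes higher and 0.942% lower. At an unadjusted p under 0.05 in edgeR's test there were 0, beside 2.17% higher and 1.84% lower. With 5 genes, 0 is near these shares and is no trait of the arterial genes. Notch4 (chr17:34564268-34588503), a Notch receptor of endothelium, was at 15.9, 24.4, 18.3 and 20.8 CPM in knockout 1 to 4 and at 18.0, 18.7, 14.3 and 14.7 CPM in wildtype 1 to 4. Gja4 (chr4:127311421-127314039), the gap junction protein connexin 37, was at 6.98, 5.10, 5.34 and 4.48 CPM against 5.92, 5.32, 5.18 and 4.39 CPM. Notch4 differed by 0.27 ± 0.16, with its 2 highest libraries knockout 2 and knockout 4, by 0.15 without knockout 2 and by 0.05 without both. Gja4 differed by 0.07 ± 0.18, by -0.06 without knockout 1, by -0.02 without knockout 1, knockout 2 and wildtype 1, and by 0.24 without knockout 2 and knockout 4. The other connexin Gja5 (4.08 ± 0.72 and 3.80 ± 0.71 CPM) and the factor Sox17 (9.98 ± 2.08 and 9.37 ± 1.71 CPM) differed by 0.10 and 0.09, and the Notch ligand Dll4 was level (10.1 ± 1.3 and 10.3 ± 1.5 CPM, -0.02).

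Levels between genes were compared per kilobase of annotated exon sequence. On that scale Plvap led the list at 57.4 CPM per kilobase over all 8 libraries, followed by Eng at 21.9, Esam at 13.3, Nrp1 at 12.6 and Emcn at 11.3. At the low end stood Tspan18 at 0.93, Sox7 at 0.81, Gja5 at 0.69 and Vwf at 0.25. The order is one of whole kidney RNA, and unspliced or unannotated sequence was not taken into account. Counting ignored strand although the library kit is directional, so exons shared with a neighbour or an antisense gene make some members uncertain. Of the Ramp2 exon bases 33.4% are shared with Vps25, of those of Nos3 25.2% with the antisense Gm15587, and of those of Rasip1 20.4% with Izumo1. For Egfl7 the share with Gm20532 was 7.37%.

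Promoter sequence was read for the members from RefSeq (GRCm38.p6) as the 250 bases before a transcription start, and 19 of 38 members had such windows, 23 in all. Each was searched on both strands for an ETS core (AGGAAG), a SOX core (AACAAT) and the AP-2 palindrome (GCCNNNGGC), the last being the motif of the factor family that the study targeted. The ETS letters were in 13 of 23 member windows (56.5%) and in 29.5% of all 32851 windows. The SOX letters were in 3 (13.0%) and 9.42%, and the AP-2 letters in 5 (21.7%) and 13.7%. Member windows also had more G and C, with a median of 58.4% against 52.4%, and several windows belong to 1 gene. Shown in full are Flt1 (chr5:147726012-147726261, minus strand) and Cd34 (chr1:194938571-194938820, plus strand), whose groups lay apart, and Nrp1 (chr8:128358823-128359072, plus strand), whose groups were level. Capitals mark the motif letters, and each line reads 5′ to 3′ up to the start.
Flt1: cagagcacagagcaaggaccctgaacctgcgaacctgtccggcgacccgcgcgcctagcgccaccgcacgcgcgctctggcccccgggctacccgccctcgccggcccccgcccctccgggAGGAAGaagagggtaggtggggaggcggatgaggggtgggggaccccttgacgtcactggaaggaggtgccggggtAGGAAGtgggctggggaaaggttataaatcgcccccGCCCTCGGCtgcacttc
Cd34: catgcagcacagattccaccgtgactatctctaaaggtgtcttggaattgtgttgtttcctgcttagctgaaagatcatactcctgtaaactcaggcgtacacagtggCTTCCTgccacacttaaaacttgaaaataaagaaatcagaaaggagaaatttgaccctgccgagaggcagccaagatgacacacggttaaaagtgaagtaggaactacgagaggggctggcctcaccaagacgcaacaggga
Nrp1: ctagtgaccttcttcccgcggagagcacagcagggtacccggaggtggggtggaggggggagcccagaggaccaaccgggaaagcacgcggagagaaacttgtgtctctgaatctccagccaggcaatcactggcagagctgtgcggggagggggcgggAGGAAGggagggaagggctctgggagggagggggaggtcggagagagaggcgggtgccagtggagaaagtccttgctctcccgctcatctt
The Flt1 window holds 2 ETS matches and 1 AP-2 match, while those of Cd34 and Nrp1 hold 1 ETS match each and no AP-2 match. ETS letters thus stand both before genes whose labels separated and before a gene that was level, and a match of letters is not a bound site.

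The highest values were spread over the libraries labelled knockout. Of the 38 members, 12 were highest in knockout 1, 11 in knockout 3, 6 in knockout 2 and 5 in knockout 4, and the remaining 4 were highest in wildtype libraries. The lowest value fell in wildtype 1, wildtype 2, wildtype 3 or wildtype 4 for 7, 7, 8 and 4 members. Both tallies include the first 12, already known to be higher, and were not taken over all genes, so they only describe the list. Knockout 4 was the least raised of its group: it held the lowest value of 6 members, and its median deviation from the members' own means was 0.00 on the log2 scale against 0.07 to 0.12 in the other 3. Over the further 26 alone that deviation was 0.13, 0.07, 0.05 and -0.05 in knockout 1 to 4. In wildtype 1 to 4 it was -0.09, -0.08, 0.00 and -0.05. All 5 members whose groups lay apart did so under each other scaling run. More members separated when libraries were left out, but so did more of all genes: 8 without knockout 2 and wildtype 1 (beside 5.28% of tested genes higher), 12 without knockout 2 and knockout 4 (7.62%), and 9 without knockout 1, knockout 2 and wildtype 1 (7.96%).

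**Figure D4:**
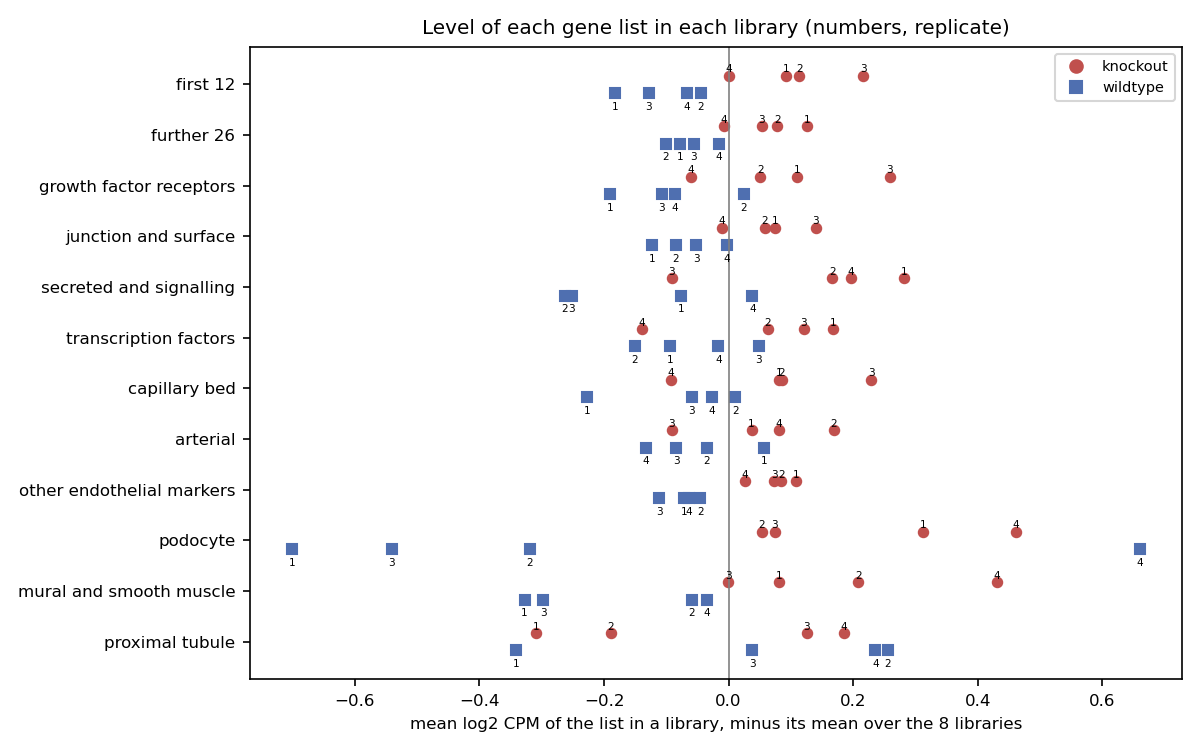
Mean log2 CPM of each gene list in each library minus the list's mean over the 8 libraries (x axis), for red circles (labelled knockout) and blue squares (labelled wildtype), with the replicate number beside each. The labels lie apart for the first 12, narrowly for the further 26, and for the other endothelial and the mural lists. They overlap for the 6 role groups, the podocyte and the proximal tubule lists. The mural list includes Ren1, and without that gene its labels overlap.

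Other genes of the same pathways leaned the same way, with 45 of 55 tested genes positive (81.8%, beside 51.3% of all tested genes) and a median log2 difference of 0.13, and none passed edgeR's adjusted threshold. Groups did not overlap for 3 of these 55 that were higher (5.45%, beside 1.03% of tested genes) and for 2 that were lower (beside 0.942%). The Notch and ephrin partners were positive in 10 of 10 cases with a median of 0.26. Among them Hey1, a Notch target, was at 2.09, 2.17, 1.26 and 1.27 CPM in knockout 1 to 4 and at 1.16, 0.81, 1.01 and 0.97 CPM in wildtype 1 to 4 (log2 difference 0.78 ± 0.28). Ephb4, the venous ephrin receptor, was at 67.2, 64.6, 67.2 and 68.6 CPM against 52.4, 58.5, 54.9 and 57.8 CPM (0.26 ± 0.08). Both separated the labels, as did the arterial ligand Efnb2 at 16.6 ± 1.2 and 14.0 ± 1.5 CPM (0.25 ± 0.12). Of the VEGF and angiopoietin partners 5 of 7 were positive with a median of 0.10: Vegfb, a ligand of Flt1, was at 60.6 ± 6.7 and 47.1 ± 4.3 CPM (0.36 ± 0.11), with overlapping groups, and Vegfa at 260.5 ± 35.1 and 242.5 ± 14.7 CPM (0.10 ± 0.11).

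The ligands and binding partners of member receptors were split, 5 of 10 positive with a median of -0.02. Lpl, the lipase that Gpihbp1 carries, was lower in every library labelled knockout, at 953 ± 142 and 1487 ± 196 CPM (log2 difference -0.64 ± 0.14). Its adjusted p was 0.957 in edgeR's test and 0.0473 in DESeq2's. Sphk1, which makes the ligand of S1pr1, was at 11.4 ± 2.4 and 7.79 ± 2.75 CPM (0.55 ± 0.24). Other vascular regulators were positive in 10 of 11 cases with a median of 0.09, led by Gata2 (0.25 ± 0.15) and Klf2 (0.17 ± 0.14). Other endothelial markers, a list outside the 38, were positive in 15 of 17 cases (88.2%, beside 51.3% of all tested genes) with a median of 0.17. These 17 are already part of the 55 related genes above. The mean log2 CPM of that list was 4.38 to 4.46 in the libraries labelled knockout against 4.24 to 4.31. This list too was chosen with earlier results known and marks the same cells in the same libraries, so it is no independent check. Of the 17, 0 lay apart and higher (beside 1.03% of tested genes) and 1 apart and lower (beside 0.942%). Plat, the tissue plasminogen activator, was at 35.5 ± 9.5 and 24.997 ± 1.8 CPM (0.50 ± 0.18). The anion transporter Slco1a4 went the other way, at 1.41 ± 0.36 and 2.76 ± 0.86 CPM with groups that did not overlap (-0.97 ± 0.29).

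Cells that lie beside endothelium also had marker genes with positive differences. The counts of positive genes below stand beside 51.3% of all tested genes. Mural and smooth muscle genes were positive in 7 of 7 cases. Singly, 0 of the 7 separated the labels, beside 1.03% of tested genes higher. With 7 genes, 0 is near that share. Among the 7 were Tagln (39.1 ± 10.8 and 26.8 ± 7.1 CPM, log2 difference 0.54 ± 0.22) and Acta2 (38.1 ± 10.9 and 27.5 ± 4.6 CPM, 0.47 ± 0.19), both contractile genes. The summed level of the 7 was 300.4 to 347 CPM in the libraries labelled knockout against 212 to 266 CPM, without overlap. That sum includes Ren1, which had the largest log2 difference of the list (0.91 ± 0.37), with overlapping groups. The gap between the sums is therefore no trait of each mural gene, and its dependence on Ren1 was not tested. Podocyte genes were positive in 6 of 6 cases, with summed levels of 61.4 to 88.6 against 40.8 to 95.7 CPM, the highest value being that of wildtype 4. Wt1, a podocyte factor, was at 2.81 ± 0.29 and 1.67 ± 0.90 CPM (0.75 ± 0.33). Fat genes were positive in 5 of 5 cases (summed 221 to 691 against 195 to 687 CPM), among them Cfd (0.64 ± 0.62) and Fabp4 (0.40 ± 0.42), and proximal tubule genes in 1 of 5 (7757 to 10971 against 7486 to 10786 CPM), with Slc22a6 at -0.30 ± 0.20 and Lrp2 at -0.11 ± 0.15. None of these genes passed edgeR's adjusted threshold, beside 0% of all tested genes. No podocyte, mural, fat or proximal tubule marker was at 0 in any library. The part of each of these lists in the endothelial values was not tested.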

How the data were processed

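Counts of reads per gene were deposited by the authors as 1 HTSeq table per library. STAR, HTSeq and edgeR and the build mm9 are named in the submitters' processing notes, while for versions and annotation the sources used here give none. The deposited count files are named as not stranded, although the kit named in the labels is directional. Lines that name no gene were left out (11.6 to 16.2% without a feature, 2.05 to 2.31% ambiguous, and 15.8 to 20.9% not uniquely aligned, relative to all lines of a table summed). Libraries were grouped by their genotype label.

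Gene counts were scaled by TMM (factors 0.9618 to 1.041), filtered with filterByExpr (minimum count 10) and tested across 14433 genes with edgeR 4.0.16 (quasi-likelihood, two-sided, Benjamini-Hochberg, threshold 0.05) in R 4.3.3. DESeq2 1.42.0, limma 3.58.1 (voom), other scalings, no filter, a replicate block and left-out libraries were the alternatives. The fits were tested on simulated data. No pair of the 8 libraries agreed within sampling noise (chi-square per gene 10.84 to 85.6).

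Members and lists were chosen with earlier results of these data known. Values per library are given for members whose groups do not overlap and, in each role group, for the member with the lowest p and the one most abundant per exon length. Of other lists the 2 genes with the lowest p and any without overlap are named. Ren1 is named besides, as the mural gene with the largest difference. One gene that this rule names is not reported here. Gene positions are those of GENCODE M21 (GRCm38), matched by identifier without converting any mm9 coordinate.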

Additional observations from a re-analysis of the deposited data

Results flagged for a closer look

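In 2 of 76 groups of 4 libraries (38 members, each label) a single library stood far from the rest of its group, and chance alone flags about 1 group in 20. Cd34 was at 36.48 CPM in knockout 1 while the other 3 libraries labelled knockout lay between 24.73 and 25.23 CPM, so that the gap was 0.957 of the group's range. Those 3 libraries were still above the highest wildtype value of 23.8 CPM. Cldn5 was at 5.714 CPM in knockout 3 while the others of its group lay between 9.29 and 9.897 CPM, a gap of 0.855 of the range.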

How the results depend on the processing

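No alternative called a member, but the size of the shift over the further 26 depended on which libraries were used. Over the 18 alternatives, 28 to 35 of 38 members were positive, 16 to 23 of the further 26, and 10 to 12 of the first 12; 3 to 9 members were higher at an unadjusted p under 0.05. The members' lowest adjusted p ran from 0.406 to 1. With library totals alone the median of all tested genes was 0.04, and 58.9% of them were positive.

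Over all genes edgeR called 0, with 578 at an unadjusted p under 0.05, limma-voom 0 with 592 and DESeq2 4 (1 higher, 3 lower). Leaving out 1 library gave 0 to 2 calls, none of them members: 1 without knockout 3, 1 without knockout 4 and 2 without wildtype 1. Without both heat-shock libraries (knockout 2 and knockout 4) there was 1. The median of the further 26 was 0.15 without those libraries and 0.0619 to 0.15 with 1 library left out, highest without knockout 4. Members whose groups lay apart numbered 5 to 9 with 1 library left out, beside 1.74 to 4.19% of all tested genes higher. Among these were 8 without knockout 3 (beside 3.86%), 9 without knockout 4 (2.09%) and 8 without wildtype 1 (4.19%). There were 8 without both adrenal libraries (5.28%) and 12 without both heat-shock libraries (7.62%). Without knockout 1, knockout 2 and wildtype 1, a setting chosen after the data were seen, there were 9 (7.96%). Fewer libraries make separation easier. Among the 13 members given per library, the sign turned for Gja4 (-0.0650 to 0.16 with 1 library left out, -0.0178 without those 3 libraries). It also turned for Sox18 (-0.13 to 0.10 with 1 left out, 0.0202 with library totals alone, 0.18 without both heat-shock libraries). Members outside these 13 turned too: of the first 12, 10 were positive without both adrenal libraries and 11 without both heat-shock libraries. The cause of these changes was not tested.

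Whether replicate numbers pair the libraries could not be settled. Same-numbered libraries correlated at 0.226, -0.230, 0.282 and 0.293 in their deviations from the group means. Differently numbered libraries ran from -0.430 (knockout 3 with wildtype 1) to 0.453 (knockout 2 with wildtype 1). The replicate block called 0 genes, with 1075 at an unadjusted p under 0.05 in edgeR's test, against 578 without the block. It left 31 members positive and gave a median of 0.08 for the further 26. With 26 to 2280 counts per member and 4 libraries a label, the members' median log2 difference of 0.15 is about the size of their median standard error.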

Other observations

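Markers of other cells that whole kidney can hold were read in the same libraries. Their counts of positive genes stand beside 51.3% of all tested genes. Lymphatic endothelial genes were positive in 4 of 4 cases with a median log2 difference of 0.16, led in size by Lyve1 (0.93 ± 0.49 and 0.68 ± 0.38 CPM, 0.47 ± 0.57) and with Prox1 at 19.2 ± 5.2 and 17.05 ± 3.7 CPM (0.17 ± 0.21). Their summed level was 25.7 to 38.4 CPM in the libraries labelled knockout and 23.5 to 31.0 CPM in those labelled wildtype. Fibroblast genes were positive in 3 of 5 cases (177.8 to 245 against 155 to 266 CPM), with Dcn at 82.4 ± 15.7 and 71.5 ± 6.7 CPM and Lum at 5.95 ± 2.43 and 4.77 ± 2.32 CPM. Leukocyte genes were positive in 1 of 4 cases (81.1 to 142 against 99.3 to 146 CPM), with the macrophage receptor Csf1r at 89.2 ± 25.8 and 106.5 ± 22.5 CPM and the pan-leukocyte Ptprc at 10.7 ± 1.9 and 12.3 ± 2.3 CPM. Platelet genes were positive in 3 of 4 cases (11.7 to 20.4 against 12.6 to 16.5 CPM), with Gp9 at 0 in some libraries, Pf4 at 1.25 ± 0.63 and 0.71 ± 0.16 CPM and Gp1ba at 1.77 ± 0.62 and 1.44 ± 0.44 CPM. Red cell genes ranged from 63.8 to 2960 CPM against 42.1 to 492 CPM, with log2 differences of 2.80 ± 1.57 for Hbb-bt and 2.21 ± 1.27 for Hba-a1. Of the adrenal genes 3 of 4 were positive, with Cyp21a1 at 0.31 ± 2.42 and Star at 0.08 ± 2.14, and Cyp11b1, Cyp11b2 and Cyp21a1 were at 0 in some libraries. None of these genes had groups that did not overlap, beside 1.03% of tested genes higher and 0.942% lower. With so few genes, 0 is near these shares and is no trait of these lists. None passed edgeR's adjusted threshold, beside 0% of all tested genes.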
